A study of Rattus norvegicus with 6 samples.

Results

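The interleukin-1 (IL-1) family was followed in bulk RNA of punctured rat tail discs through 8 genes, taken by gene name from a table of 30562 genes. They encode the ligands IL-1α (Il1a), IL-1β (Il1b) and IL-33 (Il33), the receptor antagonist Il1rn, the signalling receptor chains Il1r1, Il1rap and Il1rl1, and the decoy receptor Il1r2. IL-1α and IL-1β bind the receptor IL1R1, which then recruits the accessory chain IL1RAP and signals through MyD88 and IRAK kinases to NF-κB. The antagonist occupies IL1R1 without this recruitment, the decoy IL1R2 binds ligand but has no signalling domain, and IL-33 uses IL1RL1 (also called ST2) with the same accessory chain. In disc and cartilage cells IL-1 is known for inducing matrix-degrading proteases, chemokines and nitric oxide synthase.

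The rats were wild-type Sprague-Dawley males, 12 weeks old by the study's methods, and a tail disc was punctured with a needle in both groups. The control discs received PBS, while the other discs received AF-PTK@LEV@SPP1, a liposome fused with bacterial outer membrane vesicles, bearing a peptide for the annulus fibrosus (AF) on a linker cut by reactive oxygen species and loaded with an siRNA against Spp1. By the methods 10 μL with 1 mg/kg of siRNA was injected from 24 h after surgery, and discs of that cohort were studied at 8 weeks. The sample labels differ, since they name an untreated control, 14 days of treatment, a sort of macrophages, mice in places and another sequencer. No library of vesicle without siRNA was analysed here, so the carrier and its cargo cannot be told apart, and the siRNA was designed against the mouse gene.

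Each group had 3 libraries, described as 3 animals. The PBS libraries held 17942989, 16565291 and 17489851 counts, and those labelled AF-PTK@LEV@SPP1 (AF replicates) held 17074981, 15560728 and 17855184. Levels are given as normalized CPM, which are counts scaled to a common library total with a correction for composition. In these units 3 counts, taken as the smallest measurable level, were 0.154 to 0.193 CPM, a floor that covers counting error only.

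PBS replicates 2 and 3 were close to copies of each other. Their counts varied 1.33 times as much as counting noise, and 16 of 14393 genes (0.111%) differed between them. In the 5 other pairs within a group the ratio was 51.3 to 107 and 39.5% to 56.6% of genes differed. The pair differed by little more than sampling noise and was counted as 1 sample, which left n = 2 PBS samples against n = 3. Fits with all 6 libraries kept are given beside the results where they change the number called. A fit without PBS replicate 1 sets 1 PBS sample against 3 and takes its spread from the AF replicates alone, wherever it is given, and leaving out a member of the pair nearly repeats the fit with all 5 samples.

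The siRNA is aimed at Spp1, which stood at 8123, 4411 and 4417 CPM in PBS replicates 1 to 3 and 8054, 6903 and 8461 CPM in AF replicates 1 to 3. The groups overlapped, and no AF replicate was below the PBS pair. Its log2 fold change was 0.31 (SE 0.37, 95% interval -0.62 to 1.24, adjusted p = 0.628 in edgeR's quasi-likelihood test). A reduction of the target was not seen, and directions below follow the AF-PTK@LEV@SPP1 label.

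The labelled tissue was checked through its markers. Col1a1, the main collagen of the annulus, stood at 31920 to 64079 CPM over the 6 libraries, and Col2a1, the collagen of nucleus pulposus and cartilage, at 13873 to 31980 CPM. Tbxt, picked after values were seen because it marks notochord-derived nucleus cells, was at 142, 17.4 and 17.3 CPM in PBS and at 757, 308 and 332 CPM in the AF replicates. Markers of disc matrix cells were therefore present in every library, beside those of macrophages, neutrophils, osteoclasts and fat. In such mixed tissue, fewer cells of a type and less RNA per cell cannot be told apart.

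Of the 8 genes, 3 were lower in the AF replicates at an adjusted p under 0.05, namely Il1a, Il1rn and Il1r1. Across all 15537 genes tested, 2.57% were called lower and 1.13% higher by the same rule (edgeR's quasi-likelihood test with Benjamini-Hochberg adjustment over all genes). On the 5 distinct samples edgeR called no IL-1 family gene of the 8 higher, and 1 was higher at an unadjusted p under 0.05. DESeq2 called 4 of the 8 lower and 1 higher (Il33), against 1440 and 1132 of all 15537 genes. Limma-voom called 3 lower and 0 higher, against 315 and 139 of all genes. With all 6 libraries kept, 4 of the 8 were called lower, Il1b being added, against 9.93% of 15042 genes lower and 8.2% higher. The groups did not overlap for 4 genes that were lower and 1 that was higher in the AF replicates, against 21.9% and 23.9% of all genes tested. The median log2 fold change was -0.98 over the 8 genes and 0.05 over all genes tested. All 8 passed the filter on low counts. Il1a, with at most 3 reads in any AF replicate, did so only through its PBS counts.

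**Figure D1:**
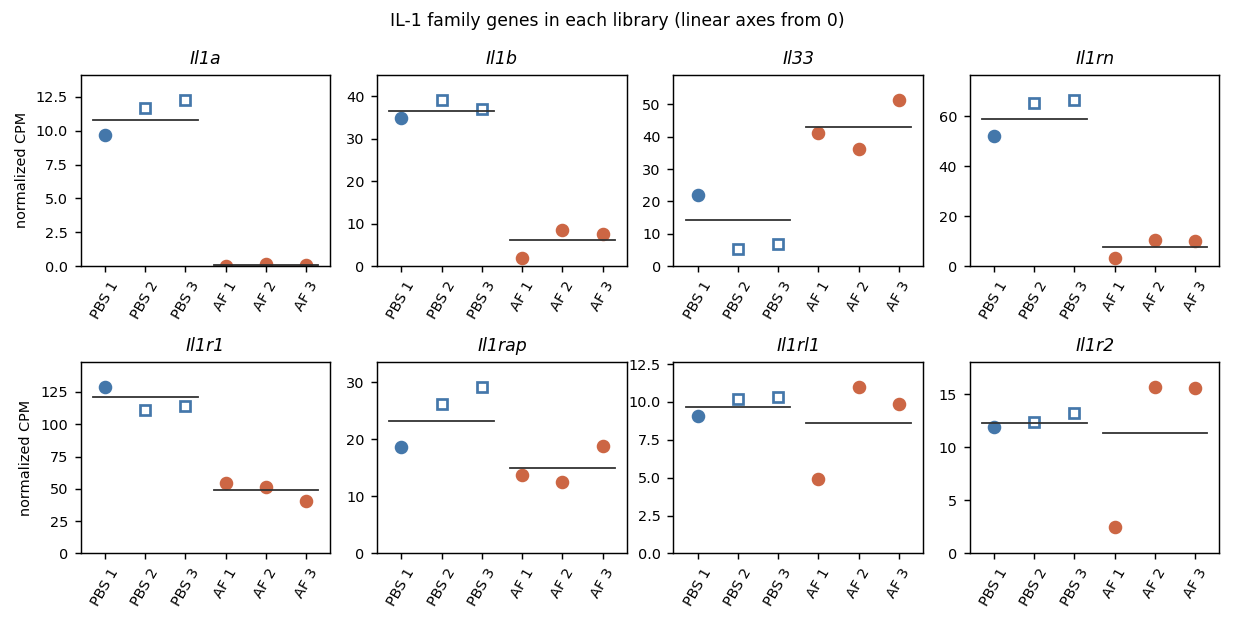
Normalized CPM of the 8 genes in each library on linear axes from 0, with PBS in blue and AF-PTK@LEV@SPP1-labelled libraries (AF) in orange. Open squares are the near-identical PBS pair, and lines are group means with the pair counted as 1 sample.

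Il1a encodes IL-1α, a ligand that is active as its precursor and is released from damaged cells as an alarm signal. It lies at chr3:116526604-116536822 on the minus strand of the deposited annotation, whose rat build is not given in the sources used here. It had 188, 182 and 202 reads in PBS replicates 1 to 3 and 0, 3 and 2 reads in AF replicates 1 to 3. In normalized units this was 9.66, 11.7 and 12.3 CPM against 0, 0.181 and 0.114 CPM. No AF replicate had more than 3 reads, and the groups did not overlap. Counts summed over all 6 libraries, 572 against 5, gave a 114-fold lower level (95% counting interval 48.5 to 352). That interval covers counting error only, leaves out spread between animals and counts both libraries of the PBS pair. The ratio of means with the PBS pair as 1 sample was 110. The fitted log2 fold change was -6.72 (SE 0.65, 95% interval -8.37 to -5.06), with an adjusted p of 0.0213 in edgeR. No AF replicate was above the floor of 3 counts, and with these replicates set to that floor the value is -5.94. Over the 13 alternatives the fitted value was -7.42 to -6.19. The adjusted p was 4.69e-17 to 0.136 over 13 alternatives, of which 11 kept the call. Among the 11 are the fits without PBS replicate 2 or 3, which nearly repeat the fit given. The edgeR fit without PBS replicate 1, which has 1 PBS sample, is another (log2 fold change -6.87), and limma-voom did not call Il1a there. The call was lost without AF replicate 2 (log2 fold change -7.42, adjusted p = 0.0733 in edgeR) or AF replicate 3 (-6.83, adjusted p = 0.136). In these settings edgeR called 0 of all genes lower, while 1581 and 1403 were lower at an unadjusted p under 0.05 and DESeq2 called 801 and 683.

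Il1b encodes IL-1β, made as a precursor that caspase-1 cuts to the active cytokine. It lies at chr3:116577010-116583415 on the same strand as Il1a, with 40187 bp between the genes. It stood at 34.8, 39.2 and 37 CPM in PBS and at 2, 8.45 and 7.64 CPM in the AF replicates. Every AF replicate was below every PBS library, and AF replicate 1 was the lowest. The means were 36.5 ± 2.33 CPM (SD, n = 2) in PBS and 6.03 ± 3.51 CPM (SD, n = 3), a ratio of 6.05. The log2 fold change of -2.61 (SE 0.57, 95% interval -4.04 to -1.17) missed the threshold, with an adjusted p of 0.0743 in edgeR. It passed in 3 of 13 alternatives, which were DESeq2 (adjusted p = 0.000281), edgeR with 6 libraries (adjusted p = 0.0187) and edgeR without AF replicate 1 (adjusted p = 0.0357). Over all alternatives its log2 fold change was -2.92 to -2.22 and its adjusted p at most 0.204.

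Il33 encodes IL-33, a nuclear cytokine of stromal and barrier cells that is released on cell damage. It lies at chr1:227721435-227736373 on the plus strand. Its level was 22.1, 5.4 and 6.9 CPM in PBS and 41.1, 36.2 and 51.5 CPM in the AF replicates. All AF replicates were above all PBS libraries, while PBS replicate 1 stood between the PBS pair and the AF replicates. The means were 14.1 ± 11.3 CPM (SD, n = 2) and 42.9 ± 7.79 CPM (SD, n = 3), 3.04-fold apart. A log2 fold change of 1.6 (SE 0.55, 95% interval 0.2 to 3.01) did not pass, with an adjusted p of 0.16 in edgeR. DESeq2 called it (adjusted p = 0.0317), but called 0 of the 8 genes higher without AF replicate 1, 2 or 3. Without PBS replicate 1 the log2 fold change of Il33 was 2.78 in edgeR. That fit sets 1 PBS sample against 3 and takes its spread from the AF replicates alone. The adjusted p was at most 0.339 over the 13 alternatives.

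Il1rn encodes the IL-1 receptor antagonist, which competes with both IL-1 ligands for IL1R1. It lies at chr3:7111550-7127445 on the plus strand, far from Il1a and Il1b on the same chromosome. It was at 52, 65.5 and 66.8 CPM in PBS and at 3.06, 10.3 and 9.92 CPM in the AF replicates. The groups were well apart, with AF replicate 1 lowest, as for Il1b. The means were 59.1 ± 9.98 CPM (SD, n = 2) and 7.74 ± 4.06 CPM (SD, n = 3), a ratio of 7.64. Il1rn fell by 2.94 on the log2 scale (SE 0.51, 95% interval -4.23 to -1.65), just past the threshold with an adjusted p of 0.0495 in edgeR and 0.01 with 6 libraries. The log2 fold change was -3.19 to -2.59 over 13 alternatives, with an adjusted p down to 1.79e-06 in DESeq2. The call was lost in 4 of them, the robust fit (adjusted p = 0.054 in edgeR) and the fits without PBS replicate 1 (adjusted p = 0.095), AF replicate 2 (0.112) or AF replicate 3 (0.173). Without PBS replicate 1 the PBS group is 1 sample, and the spread comes from the AF replicates alone.

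Antagonist and IL-1β were also compared within each library. Per read of Il1rn there were 0.669, 0.599 and 0.554 reads of Il1b in PBS, and 0.654, 0.824 and 0.77 in the AF replicates. The groups overlapped, because AF replicate 1 lay below PBS replicate 1. The mean log2 ratio was -0.69 ± 0.15 (SD, n = 2) in PBS and -0.41 ± 0.16 (SD, n = 3) in the AF replicates, a difference of 0.27 (two-sided exact permutation test, p = 0.3). With 3 samples against 2 such a test cannot give a p below 0.1. A change in the ratio of ligand to antagonist transcripts was therefore not detected, while both lay lower in each AF replicate.

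Il1r1 encodes the signalling receptor for IL-1α and IL-1β. It lies at chr9:42504735-42579937 on the plus strand. It was at 129, 111 and 114 CPM in PBS and at 54.6, 51.3 and 40.2 CPM in the AF replicates. The libraries of each group lay close together and the groups did not overlap. The means were 121 ± 11.2 CPM (SD, n = 2) and 48.7 ± 7.57 CPM (SD, n = 3), a ratio of 2.48. Il1r1 fell by 1.32 on the log2 scale (SE 0.17, 95% interval -1.73 to -0.9, adjusted p = 0.0295 in edgeR and 0.00467 with 6 libraries). The call was lost without PBS replicate 1 (adjusted p = 0.0747 in edgeR), AF replicate 1 (0.0565), AF replicate 2 (0.0903) or AF replicate 3 (0.136), and the log2 fold change stayed between -1.44 and -1.19 over all 13 alternatives. Here too the fit without PBS replicate 1 has 1 PBS sample and draws its spread from the AF replicates.

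Il1rap encodes the accessory chain shared by the receptors for IL-1 and IL-33. It lies at chr11:74070304-74199530 on the minus strand. Its level was 18.7, 26.2 and 29.2 CPM in PBS and 13.8, 12.5 and 18.8 CPM in the AF replicates. The highest AF replicate and the lowest PBS library had nearly the same value, so that the groups just overlapped. The log2 fold change of -0.64 (SE 0.26, 95% interval -1.3 to 0.01) did not pass, with an adjusted p of 0.204 in edgeR. It was called in 0 of the 13 alternatives, DESeq2 and limma-voom among them, with an adjusted p from 0.0726 to 0.375.

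Il1rl1, the IL-33 receptor ST2, also gives rise to a soluble form that traps IL-33, and counts per gene do not separate the forms. It lies at chr9:42697192-42727256 on the plus strand. It was at 9.04, 10.2 and 10.3 CPM in PBS and at 4.88, 11 and 9.86 CPM in the AF replicates. AF replicate 1 was low and the others lay among or above the PBS values. Its log2 fold change was -0.18 (SE 0.37, 95% interval -1.11 to 0.76, adjusted p = 0.795 in edgeR), and its sign turned without AF replicate 1, to 0.07 (adjusted p = 0.825). The interval reaches -1.11, so that a difference of that size could have been missed.

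Il1r2 encodes the decoy receptor, which removes IL-1 without signalling and is typical of neutrophils and some macrophages. It lies at chr9:42384433-42424725 on the plus strand. It was at 11.9, 12.4 and 13.2 CPM in PBS and at 2.47, 15.7 and 15.6 CPM in the AF replicates. AF replicates 2 and 3 were above every PBS library and AF replicate 1 was far below them. The log2 fold change of -0.14 (SE 0.74, 95% interval -2.01 to 1.73, adjusted p = 0.921 in edgeR) thus averages libraries that differ, and without AF replicate 1 it was 0.3 (adjusted p = 0.265). The adjusted p was 0.265 to 0.94 over the 13 alternatives.

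The decoy was set against the signalling receptor within each library. Per read of Il1r1 there were 0.0923, 0.111 and 0.116 reads of Il1r2 in PBS, and 0.0452, 0.307 and 0.387 in the AF replicates. AF replicates 2 and 3 had more decoy reads per receptor read than any PBS library, and AF replicate 1 had fewer. The mean log2 ratio was -3.28 ± 0.21 (SD, n = 2) in PBS and -2.49 ± 1.67 (SD, n = 3) in the AF replicates, a difference of 0.79 (two-sided exact permutation test, p = 0.5). The difference was 1.75 without AF replicate 1 (exact permutation p = 0.333, the smallest that 2 samples against 2 can give), 0.39 without AF replicate 2 and 0.23 without AF replicate 3.

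**Figure D2:**
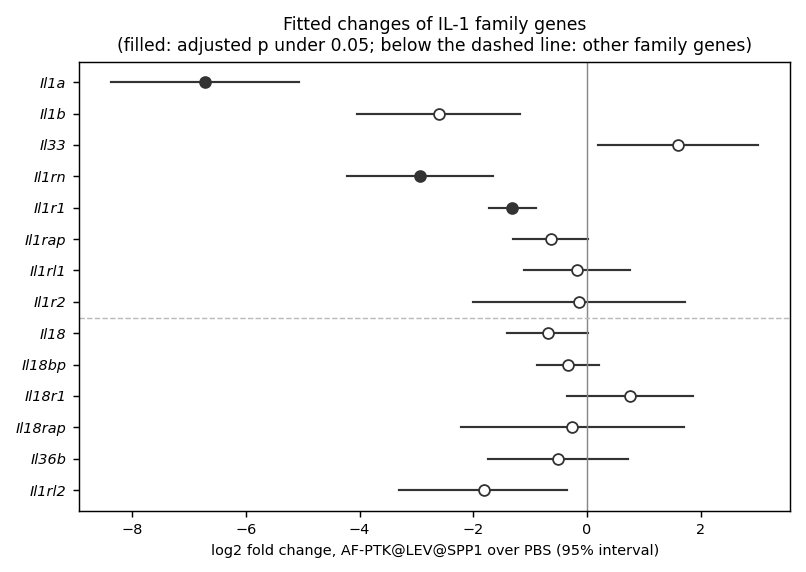
Fitted log2 ratio of AF replicates to PBS for the 8 genes and, under the dashed line, 6 other genes of the family. Bars are 95% intervals from edgeR with 5 distinct samples, and filled points (Il1a, Il1rn and Il1r1) have an adjusted p under 0.05.

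Il1r2, Il1r1 and Il1rl1 belong to a row of receptor genes on chromosome 9, all on the plus strand, in the order Il1r2, Il1r1, Il1rl2, Il1rl1, Il18r1 and Il18rap. The gaps between these genes in turn were 80009, 11996, 60524, 612 and 7504 bp. The annotation also has RGD1564447 between Il1r2 and Il1r1 and AABR07067459.1 within Il1rl2, both on the minus strand and with at most 1 read in any library. Il1rl2, the IL-36 receptor next to Il1r1, was at 1.34, 3.22 and 2.63 CPM in PBS and at 0.882, 0.302 and 0.627 CPM in the AF replicates. All AF replicates were lower, and its log2 fold change was -1.82 with the pair as 1 sample (adjusted p = 0.142 in edgeR) and -1.97 with 6 libraries (adjusted p = 0.045). Il18rap, a chain of the IL-18 receptor at the other end, was at 12.2, 11.2 and 11 CPM in PBS and at 1.94, 14.5 and 13.1 CPM in the AF replicates, low in AF replicate 1 alone, like Il1r2 (log2 fold change -0.26, 95% interval -2.21 to 1.7). Il18r1, which lies beside Il1rl1, was at 0.668 to 1.16 CPM in PBS and 1.12 to 1.87 CPM in the AF replicates (log2 fold change 0.75, adjusted p = 0.34 in edgeR).

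Of 13 other family genes in the table, 6 had enough counts to be tested, and edgeR called 0 of them, with 1 lower at an unadjusted p under 0.05. DESeq2 and limma-voom also called 0. Their median log2 fold change was -0.42, against 0.05 over all genes. Il18, a ligand that is cut by caspase-1 like IL-1β, was at 14.9, 11.6 and 9.77 CPM in PBS and at 10, 7.96 and 5.93 CPM in the AF replicates (log2 fold change -0.69, 95% interval -1.41 to 0.02, adjusted p = 0.206 in edgeR). Its soluble inhibitor Il18bp had 7.45, 4.95 and 5.92 CPM in PBS and 5.29, 4.95 and 5.19 CPM in the AF replicates (log2 fold change -0.33, 95% interval -0.88 to 0.22). The ligand Il36b had 1.03, 1.35 and 0.794 CPM in PBS and 0.47, 0.603 and 1.14 CPM in the AF replicates (log2 fold change -0.51, 95% interval -1.75 to 0.73). Il36a, Il36g and Sigirr had 0 reads in all 6 libraries.

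Genes whose pattern over the 6 libraries was nearest to 7 of the 8 are given, sought among 12971 genes, by the root mean square difference of centred log2 CPM. The 3 nearest to Il1a were Il6 (0.47), Nos2 (0.48) and Slpi (0.49). For Il1b they were Clec4e (0.17), Il1rn (0.2) and Tlr2 (0.33), and for Il1rn they were Il1b (0.2), Clec4e (0.27) and Htr2b (0.32). Il1b and Il1rn were each among the nearest of the other. Clec4e, a receptor of myeloid cells for microbial and cell debris lipids, was at 19.9, 22.8 and 22 CPM in PBS and at 1, 4.28 and 5.64 CPM in the AF replicates. The genes nearest to Il33 were Efhd1 (0.14), Clec3b (0.16) and Dpp4 (0.18). Clec3b had 33.3, 7.72 and 8.06 CPM in PBS and 52.9, 56.7 and 60.8 CPM in the AF replicates, with PBS replicate 1 in between as for Il33. Those nearest to Il1r1 were Cstb (0.1), Steap4 (0.1) and Ripk2 (0.11), and those nearest to Il1rap were Anxa1 (0.06), Mpzl3 (0.09) and Ier2 (0.09). Il18rap (0.12), Trim45 (0.18) and Parvg (0.25) were nearest to Il1r2.

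Genes that cut or release IL-1 were measured from a list of which 17 were tested. Only Mmp9, a protease that can cut the IL-1β precursor, was called in edgeR, at 1122, 835 and 843 CPM in PBS and 301, 348 and 287 CPM in the AF replicates (log2 fold change -1.66, adjusted p = 0.026). That was 1 of 17, against 2.57% of all genes called lower. Mmp9 is held by the osteoclast list as well. On the 5 samples limma-voom called 1 lower and DESeq2 3, and edgeR with 6 libraries called 3. Without PBS replicate 1, AF replicate 1, AF replicate 2 or AF replicate 3 edgeR and limma-voom called 0 lower, where 2, 3, 2 and 2 were lower at an unadjusted p under 0.05 in edgeR and DESeq2 called 2, 2, 2 and 1. In the fit without PBS replicate 1, which has 1 PBS sample, DESeq2 also called 3 higher, and 2 were higher at an unadjusted p under 0.05 in edgeR. The list's median log2 fold change was 0.12. Casp1 and Nlrp3 were singled out after their values were seen, for their role in cutting the IL-1β precursor. Casp1 had 19.1, 11 and 9.46 CPM in PBS and 7.76, 16.7 and 16.4 CPM in the AF replicates (log2 fold change -0.11, 95% interval -1.21 to 0.98, adjusted p = 0.894 in edgeR). Nlrp3, the inflammasome sensor, had 11.9, 11 and 9.52 CPM against 6.53, 15.9 and 13.9 CPM (log2 fold change 0.12, 95% interval -0.87 to 1.12, adjusted p = 0.867 in edgeR). Both overlapped between the groups, with AF replicate 1 lowest.

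Downstream of the receptor, 2 of 26 tested signalling genes were called lower and 0 higher in edgeR, against 2.57% and 1.13% of all genes tested. In this list 2 were higher at an unadjusted p under 0.05 in edgeR. Limma-voom called 1 lower and 0 higher, while DESeq2 and the 6 libraries in edgeR each gave 3 lower and 1 higher. Of all 15537 genes DESeq2 called 1440 lower and 1132 higher, and edgeR with 6 libraries called 9.93% lower and 8.2% higher. The number lower in edgeR was 1 without PBS replicate 1 and 0 without AF replicate 1, 2 or 3, where 5, 6 and 5 were lower at an unadjusted p under 0.05, DESeq2 called 3, 3 and 1 and limma-voom 0. The median log2 fold change was -0.13. Irak3, an IRAK family member that restrains signalling, was at 51.8, 65.1 and 68.9 CPM in PBS and at 31.5, 32 and 30.6 CPM in the AF replicates (log2 fold change -0.93, adjusted p = 0.0391 in edgeR). Ube2n, an enzyme that builds ubiquitin chains with TRAF6, was at 56.9, 49.7 and 51 CPM against 35.3, 34.8 and 34 CPM (log2 fold change -0.64, adjusted p = 0.0426 in edgeR). Both were lower in 3 of 3 AF replicates. Tab2, the most abundant gene of the list, was at 120 to 126 CPM in PBS and 115 to 125 CPM in the AF replicates.

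Genes known to be induced by IL-1 were measured as a list. Of 29 tested, 23 were called lower in edgeR, against 2.57% of all genes tested. The median log2 fold change was -3.07, against 0.05 over all genes. It was -2.97 with the 3 genes at or under 3 counts in every AF replicate set to their bound. Ccl20, Cxcl2, Il6, Csf2 and Csf3, under 10 counts in every AF replicate, passed the filter on low counts only through their PBS counts. On the same samples DESeq2 called 26 lower and limma-voom 16, against 1440 and 315 of all 15537 genes. Many genes of the list also respond to other inflammatory signals, and several were named by the study from these libraries. The list is therefore not independent evidence of a direction. Ccl20, a chemokine for lymphocytes and dendritic cells, was at 9.76, 33.8 and 36 CPM in PBS and had 1 read in each AF replicate. Summed over all 6 libraries this was a 433-fold lower level (95% counting interval 148 to 2101, which leaves out spread between animals). With the PBS pair as 1 sample the means were 22.3 and 0.0587 CPM. The fitted log2 fold change was -8.45 (95% interval -10.48 to -6.41, adjusted p = 0.0205 in edgeR), or -6.99 with the AF replicates at the floor. Cxcl2, a chemokine for neutrophils like Cxcl6 and Cxcl1, was at 27.4, 72.1 and 68 CPM against 0.235, 0.121 and 0.399 CPM (log2 fold change -7.56). Cxcl6 was at 71.1, 135 and 130 CPM against 0.176, 0.845 and 0.798 CPM (-7.39), and Cxcl1 at 50.5, 101 and 107 CPM against 0.176, 1.03 and 1.31 CPM (-6.52). Nos2, the inducible nitric oxide synthase, was at 197, 300 and 306 CPM against 1.06, 3.86 and 3.42 CPM (-6.5), and Il6 at 8.42, 18.4 and 16.5 CPM against 0.118, 0.362 and 0.456 CPM (-5.36). Mmp13, the collagenase and most abundant gene of the list, was at 6095, 4572 and 4559 CPM in PBS and 626, 853 and 640 CPM in the AF replicates (log2 fold change -2.92, adjusted p = 0.0196 in edgeR). Csf2, Csf3, Nfkbie, Icam1, Vcam1 and Lcn2 were not called. Vcam1, chosen after its values were seen, was at 60.2, 21 and 23 CPM in PBS and at 44, 140 and 92.7 CPM in the AF replicates, overlapping between the groups. The number called lower in edgeR was 26 with 6 libraries, 13 without AF replicate 1 (limma-voom 9, DESeq2 25 and 1 higher) and 0 without AF replicate 2 or AF replicate 3. In each of the latter settings 27 were lower at an unadjusted p under 0.05, 24 were called by DESeq2 and 0 by limma-voom.

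Products of cells that answer IL-33 were measured as a list of 10 genes. Il5 and Il13 had 0 reads in all libraries, which allows at most 0.193 CPM, and Il4 had 1 read in 1 library. Of 5 tested genes of this list, Il2ra, a receptor chain of activated and regulatory T cells, fell from 4.11, 4.7 and 5.19 CPM in PBS to 0.764, 0.724 and 0.627 CPM in the AF replicates (log2 fold change -2.68, adjusted p = 0.0221 in edgeR). The call was lost in edgeR without AF replicate 1, 2 or 3, where 0 genes of the list were called lower in edgeR and limma-voom, 3, 2 and 2 were lower at an unadjusted p under 0.05 and DESeq2 called 1 each. T cell markers were lower as well, with sums of 19 to 20.6 CPM in PBS and 4.94 to 6.5 CPM in the AF replicates, and their part was not tested. With 6 libraries 2 genes were called lower. The list's median log2 fold change was -2.37, or -1.97 with Csf2 at its bound. Csf2 is held by the IL-1 induced list as well. Ccl24, a chemokine for eosinophils chosen after its values were seen, lay the other way, at 1.59, 0.901 and 0.733 CPM in PBS and 4.47, 3.8 and 1.77 CPM in the AF replicates. Its groups did not overlap, and its log2 fold change of 1.48 (95% interval 0.08 to 2.88) did not pass, with an adjusted p of 0.181 in edgeR.

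Myeloid cells are among those that make Il1a, Il1b, Il1rn and Il1r2, and myeloid markers were read in the same libraries. The 12 neutrophil genes, led by S100a9, summed to 1217, 205 and 193 CPM in PBS and to 320, 3132 and 4230 CPM in the AF replicates. In this list 0 of 10 tested genes were called by edgeR, DESeq2 or limma-voom and 0 had an unadjusted p under 0.05 in edgeR, and Ltf had at most 1 read in any library. Without AF replicate 1, 4 were higher at an unadjusted p under 0.05 in edgeR and DESeq2 called 5 higher, and without PBS replicate 1 these numbers were 3 and 4, while edgeR and limma-voom still called 0. The neutrophil sum was higher in AF replicates 2 and 3 than in any PBS library, and AF replicate 1 lay among the PBS values. Il1a, Il1b and Il1rn were lower in every AF replicate, and the part of neutrophils in their values was not tested. The 13 macrophage and monocyte genes, led by Lyz2, summed to 3176, 2159 and 2135 CPM in PBS and to 682, 1907 and 1980 CPM in the AF replicates. Of 12 tested, 2 were called lower in edgeR, against 2.57% of all genes tested. They were Cd68 (log2 fold change -1.97, adjusted p = 0.0231) and Cd14 (-1.89, adjusted p = 0.0119), and Marco had 0 reads throughout. DESeq2 called 4 lower, limma-voom 2 and edgeR with 6 libraries 3. In edgeR 1 was called without PBS replicate 1 or AF replicate 1, and 0 without AF replicate 2 or 3, where 5 and 4 were lower at an unadjusted p under 0.05, DESeq2 called 5 and 3 and limma-voom 0. AF replicate 1 had the lowest macrophage sum and the lowest Il1b, Il1rn, Il1r2, Il18rap and Casp1. Lyz2, which neutrophils express as well, gave 1833, 1267 and 1247 CPM of this sum in PBS and 272, 1243 and 1401 CPM in the AF replicates, so the sum does not follow macrophages alone. Lyz2 overlapped between the groups. With the PBS pair as 1 sample, 6 of the 12 tested genes were lower without overlap and 0 higher, against 21.9% and 23.9% of all genes tested. The part of cell number in these differences was not tested further.

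**Figure D3:**
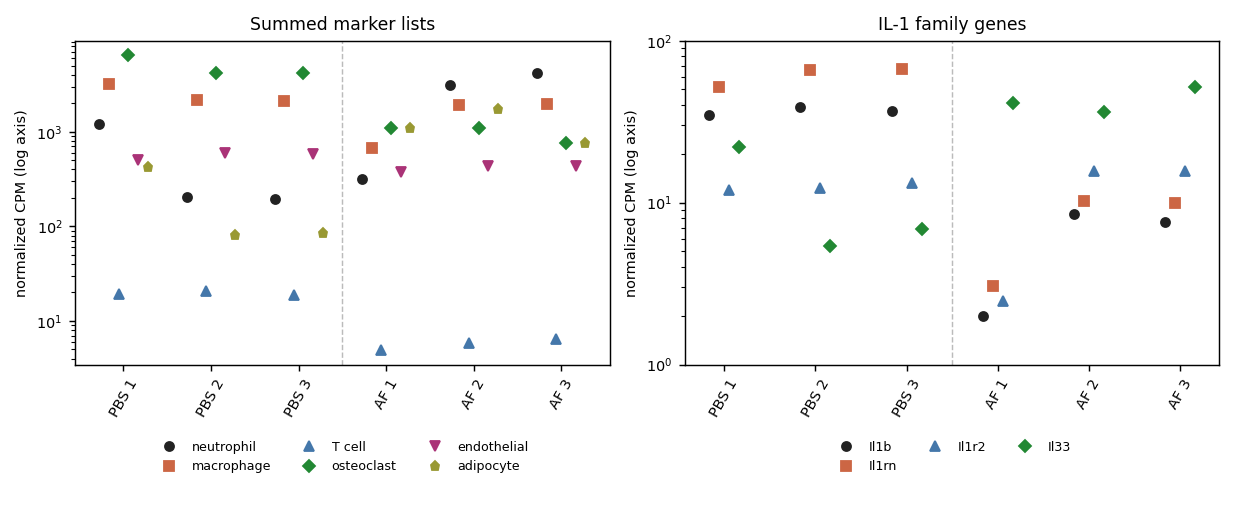
Left, summed normalized CPM of 6 marker lists in each library, and right, normalized CPM of 4 genes of the family, both on log axes, with points of a library shifted sideways for legibility and a dashed line between PBS and AF libraries. The neutrophil sum is 320, 3132 and 4230 in AF replicates 1 to 3 and 1217, 205 and 193 in PBS replicates 1 to 3. Il1b and Il1rn are lower in all AF replicates.

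Other cell types also differed between libraries. Osteoclast genes, led by Ctsk, summed to 6426, 4189 and 4210 CPM in PBS and 1110, 1088 and 764 CPM in the AF replicates, with 4 of 6 called lower in edgeR. T cell genes, led by Cd2, summed to 19.2, 20.6 and 19 CPM against 4.94, 5.85 and 6.5 CPM, with 2 of 5 called lower. Of all genes tested edgeR called 2.57% lower. DESeq2 called 5 osteoclast and 4 T cell genes lower, limma-voom 4 and 2, and edgeR with 6 libraries 5 and 4. Without PBS replicate 1 or AF replicate 1 edgeR called 1 osteoclast gene and 0 T cell genes, with 3 and 4 T cell genes lower at an unadjusted p under 0.05, 2 called by DESeq2 and 0 by limma-voom. Without AF replicate 2 or 3 edgeR and limma-voom called 0 of either list, with 5 osteoclast genes and 5 and 4 T cell genes lower at an unadjusted p under 0.05, and DESeq2 called 5 and 2. Both sums were lower in every AF replicate, like Il1a, Il1rn and Il1r1, and their part in those results was not tested. Adipocyte genes, led by Fabp4, summed to 428, 80.6 and 84.9 CPM in PBS and 1108, 1743 and 765 CPM in the AF replicates. As for Il33, PBS replicate 1 lay between the PBS pair and the AF replicates, and the part of these cells in the Il33 values was not tested. Of the 7 adipocyte genes 0 were called in edgeR and in limma-voom, 6 were higher at an unadjusted p under 0.05, and 6 were called higher in DESeq2. Schwann cell genes, led by Pmp22, summed to 206, 281 and 277 CPM against 368, 964 and 1466 CPM, with 0 of 6 called in edgeR and limma-voom, 5 at an unadjusted p under 0.05 and 5 in DESeq2. Endothelial genes, led by Pecam1, summed to 498, 601 and 585 CPM against 375, 438 and 435 CPM, with 0 of 6 called in edgeR and limma-voom, 3 lower at an unadjusted p under 0.05 and 2 in DESeq2. With 6 libraries edgeR called 2 adipocyte and 4 Schwann cell genes higher and 3 endothelial genes lower, and without AF replicate 1 it called 2 Schwann cell genes higher.

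Erythroid genes, led by Hba-a1, summed to 2391, 3187 and 3277 CPM in PBS and 2507, 20566 and 14098 CPM in the AF replicates, and muscle genes, led by Acta1, to 1129, 1395 and 1413 CPM against 1103, 11627 and 2965 CPM. B cell genes, led by Cd79a, summed to 42.5, 4.95 and 3.54 CPM against 21.9, 57.1 and 89.4 CPM, and osteoblast genes, led by Ibsp, to 4565, 1788 and 1783 CPM against 2165, 3124 and 1803 CPM. Mast cell genes, led by Kit, summed to 23.7 to 31.3 CPM in PBS and 24.3 to 57.4 CPM in the AF replicates. Epidermal genes, led by Sbsn, summed to 64.2 to 107 CPM and 81.7 to 145 CPM, and Krtdap had at most 1 read in any library. In these lists edgeR and limma-voom called 0 genes, with 1 erythroid gene at an unadjusted p under 0.05 in edgeR, and DESeq2 called 2 erythroid genes. Leaving out 1 library gave calls here. Without AF replicate 1 edgeR called 1 erythroid gene higher and DESeq2 4 erythroid, 7 muscle and 1 mast cell genes. Without PBS replicate 1, which leaves 1 PBS sample and a spread from the AF replicates alone, edgeR called 2 osteoblast genes higher and limma-voom 1, and DESeq2 called 5 B cell, 3 erythroid, 2 osteoblast and 2 mast cell genes higher. Without AF replicate 2 DESeq2 called 1 osteoblast gene lower. Annulus genes, led by Col1a1, summed to 61864, 91209 and 92078 CPM in PBS and 118707, 85241 and 102575 CPM in the AF replicates, and had 1 of 10 called lower in edgeR, the proteoglycan Lum (log2 fold change -3.4, adjusted p = 0.0303). In DESeq2 2 annulus genes were called lower and 2 higher, in limma-voom 1 lower and in edgeR with 6 libraries 2 lower. In edgeR and limma-voom 0 were called without any 1 of the AF replicates, where 2 were lower at an unadjusted p under 0.05 in edgeR and DESeq2 called 2 lower. Nucleus pulposus genes, led by Col2a1, summed to 19586, 27095 and 26936 CPM against 41647, 28449 and 41989 CPM, and had 0 of 11 called in edgeR and limma-voom, 5 higher at an unadjusted p under 0.05, 5 called in DESeq2 and 2 in edgeR with 6 libraries. Beside 0.05 over all genes, the median log2 fold change was 1.84 for neutrophil, -0.84 for macrophage, -1.3 for T cell, -2.31 for osteoclast, 2.63 for adipocyte, 2.29 for Schwann cell and -0.24 for endothelial genes. It was 2.92 for erythroid, 1.97 for muscle, 1.23 for B cell, -0.3 for osteoblast, 0.03 for mast cell, 0.62 for epidermal, 0.04 for annulus and 0.71 for nucleus pulposus genes.

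The start regions of Il1a, Il1b and Il1rn are shown, a choice made after the values were seen, because these had the most negative log2 fold changes of the 8. Promoter sequences from RefSeq (GRCr8) were found for 7 of the 8 genes, Il1r2 having no entry in the table used, and the 250 bases before the start were searched on both strands for 5 motifs. A form of the NF-κB motif, GGG, any 2 bases and TTTCC, was held by 1.3% of 33469 such windows, and its looser form GGG, any 3 bases and TTCC, which includes it, by 4.53%. TGANTCA, the AP-1 motif, was held by 6.34%, TATAAA, the TATA box, by 12.9%, and TTNNGNAAT, a C/EBP motif, by 10.9%, N being any base. In Il1rn, at chr3:27520072-27520321 on the plus strand, the NF-κB form lay 129 to 120 bases before the start, with a C/EBP match 142 to 134 bases and a TATA box match on the other strand 64 to 59 bases before it. In Il1a, at chr3:136990018-136990267 on the minus strand, TATAAA lay 32 to 27 bases and the AP-1 match TGACTCA, which counts on both strands, 12 to 6 bases before the start, with a TATA box match on the other strand at 237 to 232 bases. In Il1b, at chr3:137036582-137036831 on the minus strand, TATAAA lay 60 to 55 bases and a C/EBP match 119 to 111 bases before the start. Il1r1 held the looser NF-κB form on the other strand 135 to 126 bases before its start. For Il33, 1 of 2 windows held TATAAA 29 to 24 bases before its start and a C/EBP match further up, Il1rl1 held a TATA box match on the other strand, and the windows of Il1rap held none of the motifs. A match describes the letters and not a bound site. Capitals mark the NF-κB form, AP-1 and TATA box matches on either strand, each sequence reading 5′ to 3′ toward the gene.
Il1rn: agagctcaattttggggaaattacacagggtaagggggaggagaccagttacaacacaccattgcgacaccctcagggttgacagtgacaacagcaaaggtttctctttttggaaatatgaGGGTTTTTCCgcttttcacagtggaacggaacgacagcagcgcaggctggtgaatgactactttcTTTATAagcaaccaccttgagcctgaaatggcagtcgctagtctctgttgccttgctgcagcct
Il1a: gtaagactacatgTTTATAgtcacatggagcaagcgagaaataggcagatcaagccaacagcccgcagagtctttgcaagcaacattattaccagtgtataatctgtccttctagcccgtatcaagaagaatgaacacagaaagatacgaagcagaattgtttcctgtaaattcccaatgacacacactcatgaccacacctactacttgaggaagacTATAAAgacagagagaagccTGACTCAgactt
Il1b: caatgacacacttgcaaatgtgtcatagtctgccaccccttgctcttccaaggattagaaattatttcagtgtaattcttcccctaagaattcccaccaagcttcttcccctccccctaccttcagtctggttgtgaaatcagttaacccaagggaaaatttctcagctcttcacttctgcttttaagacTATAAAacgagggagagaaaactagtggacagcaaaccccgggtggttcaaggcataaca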

How the data were processed

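Bulk RNA of rat intervertebral discs was measured in 6 libraries. The authors deposited counts, whole numbers of reads per Ensembl gene and library, without normalization. The submitters' processing notes list FastQC, Trimmomatic, HISAT2, featureCounts and DESeq2 without versions, and a mouse build, whereas the identifiers are of rat, so the build behind the coordinates is not known. Use of strand in counting is not given in the sources used here, and no annotated gene overlaps any of the 8.

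Counts were analysed with edgeR 4.0.16 in R 4.3.3 (trimmed mean of M-values, filterByExpr with a minimum count of 10, quasi-likelihood test, common biological coefficient of variation 0.302), with calls at an adjusted p (Benjamini-Hochberg over 15537 genes) under 0.05. PBS replicates 2 and 3 were summed, by the rule that pairs of a group with a noise ratio under 2 over genes with at least 20 counts are 1 sample. CPM use size factors from the 6 libraries, log2 ratios and likeness a prior count of 2, and likeness used genes of mean log2 CPM 1 or more. Alternatives were DESeq2 1.42.0, limma-voom (limma 3.58.1), another normalization, no filter, a robust fit, 6 libraries with and without the replicate block, and each library left out. The fit and the pair check were also run on simulated counts that gave every gene the same relative spread, unlike real libraries. No result given here rests on that run. Figures were drawn with matplotlib 3.10.9.

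The 8 genes, 5 pathway lists and 15 marker lists were chosen with earlier results of these data known. Genes named by rule are the 8, the tested other family genes, up to 6 called genes of largest change per pathway list, the most abundant gene per list, and the 3 nearest genes of 7 of the 8. Others were named outside this rule, among them Tbxt, Casp1, Nlrp3, Vcam1 and Ccl24, picked after their values were seen. Some uncalled or barely detected genes of the lists were also named. Of the listed names, 9 were not matched and not analysed here. The labels' description of sorted macrophages was not used.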

Additional observations from a re-analysis of the deposited data

How the results depend on the processing

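With 5 distinct samples edgeR called 400 genes lower and 175 higher in the AF replicates. DESeq2 called 1440 lower and 1132 higher, with 1 of the 8 IL-1 family genes higher, and edgeR on 6 libraries called 1494 and 1233. With 6 libraries and the replicate block 434 were lower and 307 higher, and Il1a, Il1rn and Il1r1 were still called (adjusted p = 0.0318, 0.0371 and 0.033 in edgeR). The numbers share no named source, the deviations of same-numbered libraries correlated at -0.323, -0.274 and -0.0794, and 0 of 6 libraries correlated best with their own number. With each library left out in turn, genes called lower ranged from 0 to 396, genes called higher from 0 to 170, family genes lower from 0 to 3 and family genes higher from 0 to 1. Without AF replicate 2 or 3 edgeR called 0 genes, where 1581 and 1403 genes were lower and 1528 and 1296 higher at an unadjusted p under 0.05, DESeq2 called 801 and 683 lower and 617 and 470 higher, and limma-voom called 0. These fits hold 2 samples against 2, and the cause was not tested. The log2 fold change of Il1rl1 ranged from -0.39 to 0.07 and that of Il1r2 from -0.46 to 0.3 over these settings, turning in sign without AF replicate 1. A limit on log2 fold change above 1, chosen after seeing the data, gave 314 lower and 138 higher with 3 of the 8 genes lower. Both log2 ratios kept their sign in every alternative run.

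Il1a at 0 to 3 reads per AF replicate, and Il36a, Il36g, Il4, Il5 and Il13 at about 0, are limited by depth. The PBS group rests on 2 distinct samples, which differ from each other in Il33 and in several marker lists.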
